A study of Homo sapiens with 2 samples.

Results

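The 38 genes described here encode the folding and quality control machinery of the endoplasmic reticulum (ER): its chaperones, disulfide isomerases, factors of ER-associated degradation (ERAD), a few subunits of the protein translocation channel, and the sensors of ER stress. They were taken from a list of gene symbols, and every Affymetrix probe set annotated to exactly 1 of them was used. Of the 38, 37 had such a probe set, among 19775 genes named in this way on the array, and they were read by 97 of its 54675 probe sets. SYVN1, the ERAD ubiquitin ligase also called HRD1, had none and is not analysed here. A further 4 probe sets, annotated to a listed gene together with another gene, were not used; they touch HSP90B1, SYVN1 and ATF6B.

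The 2 samples are lines made from SK-N-MC, which the submitters call a human neuroepithelioma and which is now placed in the Ewing tumour family. Both stably carry the expression vector pCMV-Script. The vector control (number 1 in the labels) holds it empty, and hyperexpression clone 4 holds the cDNA of human melanotransferrin, a membrane-anchored relative of the iron carrier transferrin that itself passes through the ER. Each group is 1 line read on 1 array, so clone and transgene cannot be told apart, no SD between samples exists and no comparison could be tested. In bulk RNA, a lower level in every cell and a low level in some cells cannot be told apart.

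Proteins bound for secretion or the cell surface enter the ER through the SEC61 channel and fold there with the help of the Hsp70 chaperone BiP, the Hsp90 homologue GRP94, the lectins calnexin and calreticulin, and the protein disulfide isomerases. Chains that fail to fold are recognised, drawn back through the membrane and degraded by ERAD. When unfolded chains build up, the sensors IRE1, ATF6 and PERK start the unfolded protein response, in which ATF6 and the spliced form of XBP1 bind short promoter elements and raise the transcription of many of these chaperones.

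All values are probe set signals as deposited, in arbitrary units, after each array had been scaled to the same trimmed mean (1000.12 on both). The log2 ratio is the log2 of the clone signal over the control signal, and a gene stands by its brightest probe set (by mean signal) unless stated. Signals under 208 were treated as dim; that floor is the 90th percentile of 191 probe sets for olfactory and taste receptors and hair keratin-associated proteins. Over 12663 genes above the floor on at least 1 array, the median log2 ratio was -0.022 with quartiles of -0.25 and 0.19. Different probe sets of a gene, read on these same arrays, had a pooled SD of 0.35 on this scale over 5387 genes (0.21 where all were bright, with signals over 2000). It is the only spread between repeat readings that these arrays hold, and it leaves out differences between arrays, cultures and clones. Of 4 probe sets for melanotransferrin (MELTF), 1 read 18.4 in the control against 4449.4 in the clone, at least 21.4-fold higher, and the others were dim or near the floor on both arrays. All 15 Ewing and SK-N-MC markers with a value were above the floor on both arrays, CD99 and NKX2-2 among them, as were 11 of 12 fibroblast markers. Below it on both were 9 of 11 epithelial, 6 of 10 melanocyte and 6 of 10 leukocyte markers, the last including CD3E, CD14 and MS4A1, although PTPRC read 15581.1 and 13942.6. The arrays also differed in their controls: the 18 probe sets of the hybridisation spikes were all lower on the clone array (median ratio 0.706), 24 of the 27 for poly-A spikes were higher (median ratio 1.52), the median of the background probe sets was 67.4 (control) and 44.0 (clone), and the 3' over 5' signal of ACTB was 1.21 and 1.44. Centring on the hybridisation or the poly-A spikes would move the median of all genes by 0.50 or -0.61 on the log2 scale. On the hybridisation spikes that median would be 0.48, so most genes would read higher. Only 7 of the listed genes would read lower there. Directions below hold for arrays scaled to the same mean, and are read against the other genes; how far the differences between the arrays enter them was not tested.

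As a group the ER genes were slightly lower in the melanotransferrin clone. Of 37 measured genes, 29 were lower in the clone and 8 higher, whereas 52.8% of all measured genes were lower. Their median log2 ratio was -0.26 (1.20-fold lower), or -0.24 relative to the median of all genes, and their quartiles were -0.38 and -0.033. At least 2-fold lower were 2 of the 37 (1.90% of all measured genes), SDF2L1 and, as a bound, ATF6B; at least 1.5-fold lower were 5 (8.43% of all), with PDIA4, MANF and HSP90B1 as the others. None was 1.5-fold higher (5.38% of all) or 2-fold higher (1.21% of all). These 2 were also over 2 pooled probe set SDs below the median (5.53% of all). ATF6B entered only because its control signal passed the floor, its ratio is set by the floor, and a dimmer ATF6B probe set went the other way. Over the 36 listed genes above the floor on both arrays, 28 were lower (48.8% of all such genes), 4 were at least 1.5-fold lower (5.92%) and 1, SDF2L1, at least 2-fold lower (1.16%). Nearest inside the 1.5-fold line was HSP90B1 and nearest outside were XBP1 and DERL2, with log2 ratios of -0.67, -0.58 and -0.55.

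The same direction was seen over single probe sets. Of their 80 probe sets that both arrays read above the floor, 62 were lower in the clone, against 51.2% of all such probe sets, and their median log2 ratio was -0.24 against -0.010 for all. Of 22 genes with 2 or more such probe sets, 12 had every one lower, against 23.8% of all genes with 2 or more; 1 (DNAJB9) had every one higher and 9 were mixed. A further count kept only genes with a mean signal of 1000 to 20000, without matching signal within that band. In it, the 27 listed genes had a median log2 ratio of -0.30 and all 6996 genes one of 0.030. The band left out listed genes of both directions, SEC61B and SDF2L1 among them. The kind of probe set also differed among these genes. Affymetrix marks with a suffix the probe sets whose probes also match other transcripts, which are often variants of the same gene but can be relatives or pseudogenes. The 14 listed genes whose brightest probe set carries such a mark had a median log2 ratio of -0.36 and the 23 others one of -0.096, whereas over all genes the medians were -0.034 and -0.014. With marked probe sets left out, 29 listed genes remained, with a median relative to all genes of -0.087, against -0.24 for all 37. Most of that move came with the genes lost: the same 29 stood at -0.11 on all probe sets, with 21 below the median of all genes either way, and the 8 others at -0.42. HSP90B1, HYOU1, SDF2L1, HERPUD1, SEL1L, OS9, EDEM3 and SEC61A1 are measured by marked probe sets alone.

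**Figure D1:**
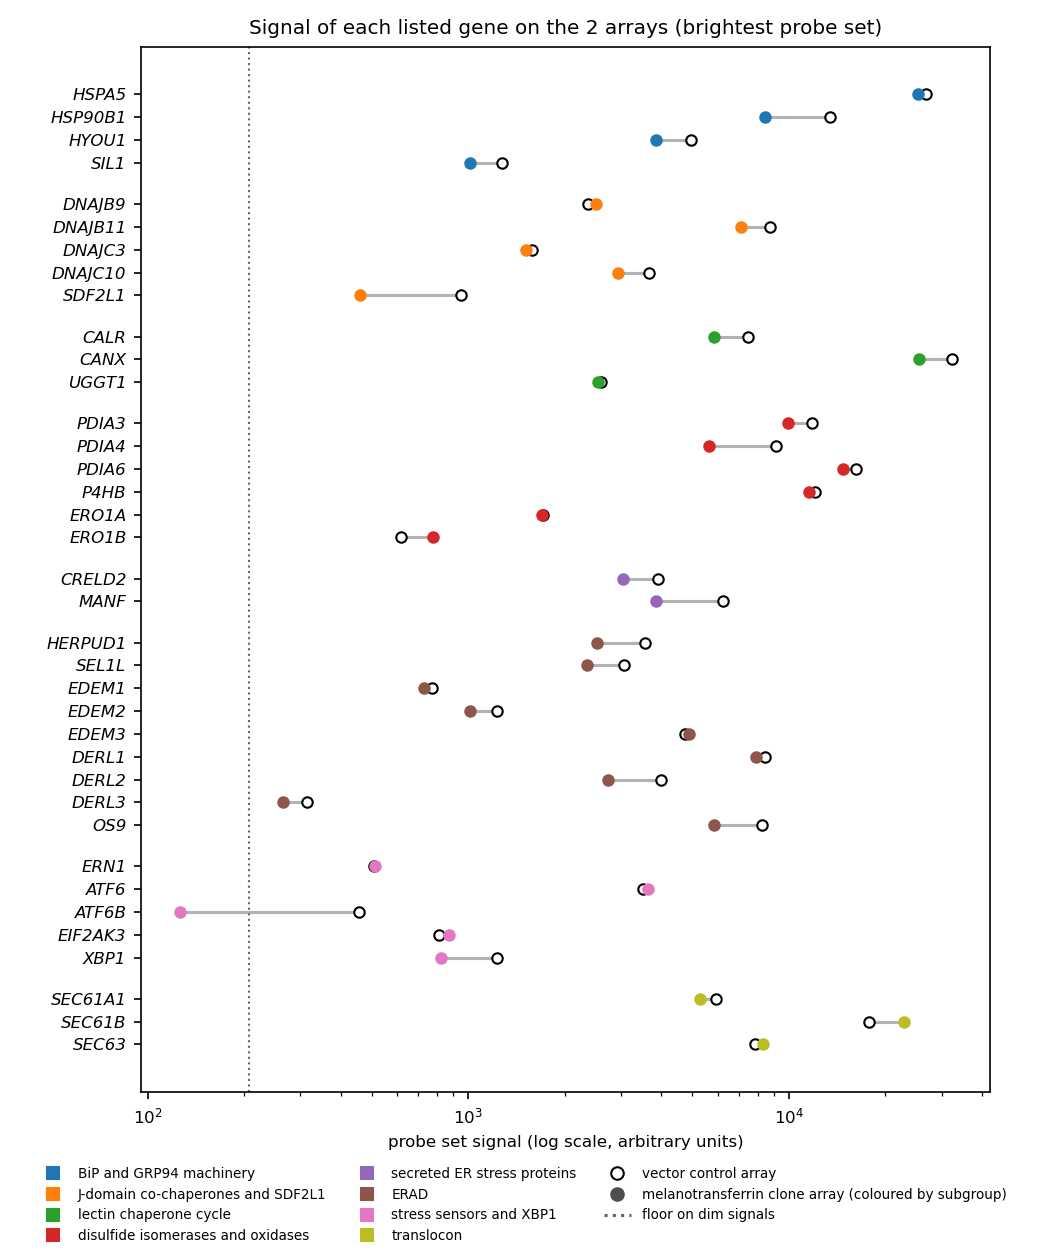
Signal of the 37 listed genes on the vector control array (open circles) and the melanotransferrin clone array (filled, coloured by subgroup), each on its brightest probe set, on a log axis in arbitrary units; the dotted line is the floor of 208. Filled circles lie to the left of open ones for 29 of 37 genes, with the widest gaps for SDF2L1 and ATF6B, whose clone signal is under the floor; levels of different genes are not comparable.

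In the BiP and GRP94 machinery, all 4 genes were lower in the clone (52.8% of all measured genes), with a median log2 ratio of -0.35. HSPA5, which encodes BiP, the central Hsp70 chaperone of the ER, had signals of 26885.1 (control) and 25267.2 (clone). Its other probe set read 1058.1 and 1211.2, so the pair gave log2 ratios of -0.090 and 0.19, both smaller in size than the pooled probe set SD of 0.35. HSP90B1, the Hsp90 homologue GRP94, read 13470.4 and 8437.4, a 1.60-fold lower signal, and 949.4 and 828.6 on its other probe set, with log2 ratios of -0.67 and -0.20. Both HSP90B1 probe sets carry the mark of shared sequence. HYOU1, the large Hsp70 relative GRP170 that acts as a nucleotide exchange factor for BiP, read 4947 and 3844.6 (log2 ratio -0.36). SIL1, another exchange factor of BiP, read 1279.8 and 1013.7 (log2 ratio -0.34). Each of these 2 genes rests on 1 probe set.

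Among the J-domain proteins, which deliver substrates to BiP and stimulate its ATPase, the genes went separate ways. SDF2L1, a partner of DNAJB11 that helps keep BiP clients from aggregating, had signals of 950.9 (control) and 460.7 (clone) on its only probe set, 2.06-fold lower and the widest gap among the genes whose brightest probe set both arrays measured. DNAJB11 (ERdj3) itself read 8772.2 and 7121.2, with a log2 ratio of -0.30. DNAJC10 (ERdj5), a J protein with disulfide reductase activity, read 3670 and 2946.2 on its brightest probe set. Its 3 brightest probe sets were lower, at -0.32, -0.28 and -0.098, the fourth was higher at 0.55 (439.5 and 641.8), and a dim one gave a bound of -0.40. DNAJB9 (ERdj4), which restrains the sensor IRE1 through BiP, was the 1 gene with every probe set higher, at 2373.2 and 2508, 1608.2 and 1627.6, and 554.5 and 768.5; only the last of these log2 ratios, 0.47, was above the probe set SD. DNAJC3 (p58IPK), a co-chaperone and inhibitor of PERK, had 4 probe sets that disagreed. They read 1588.2 and 1512.4, 725 and 1309.8, 760.8 and 640.6, and 490.8 and 279.6, with log2 ratios from -0.81 to 0.85, so no direction can be given for it.

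The lectin chaperones were lower across their probe sets. CANX, the membrane-bound lectin calnexin, read 32258 and 25530.5, 23330 and 13148.5, 13632.7 and 7471, and 1780.3 and 1327 in control and clone on its 4 measured probe sets. All 4 were lower, at log2 ratios of -0.34, -0.83, -0.87 and -0.42, and the brightest, which stands for the gene in the counts, gave the smallest difference. CALR, its soluble counterpart calreticulin, read 7466.1 and 5856.3, 5962 and 4614.9, and 3836.1 and 2105.8. Its log2 ratios were -0.35, -0.37 and -0.87, again all lower, and the largest came from the probe set without shared sequence. UGGT1, the glucosyltransferase that returns unfinished glycoproteins to these lectins, read 2602.6 and 2543.4 on its brightest probe set. The 4 UGGT1 probe sets measured on both ranged from -0.41 to -0.033, and a dim one was higher by a bound of 0.48. Over the lectin cycle, 11 of 11 probe sets measured on both arrays were lower in the clone (51.2% of all such probe sets).

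**Figure D2:**
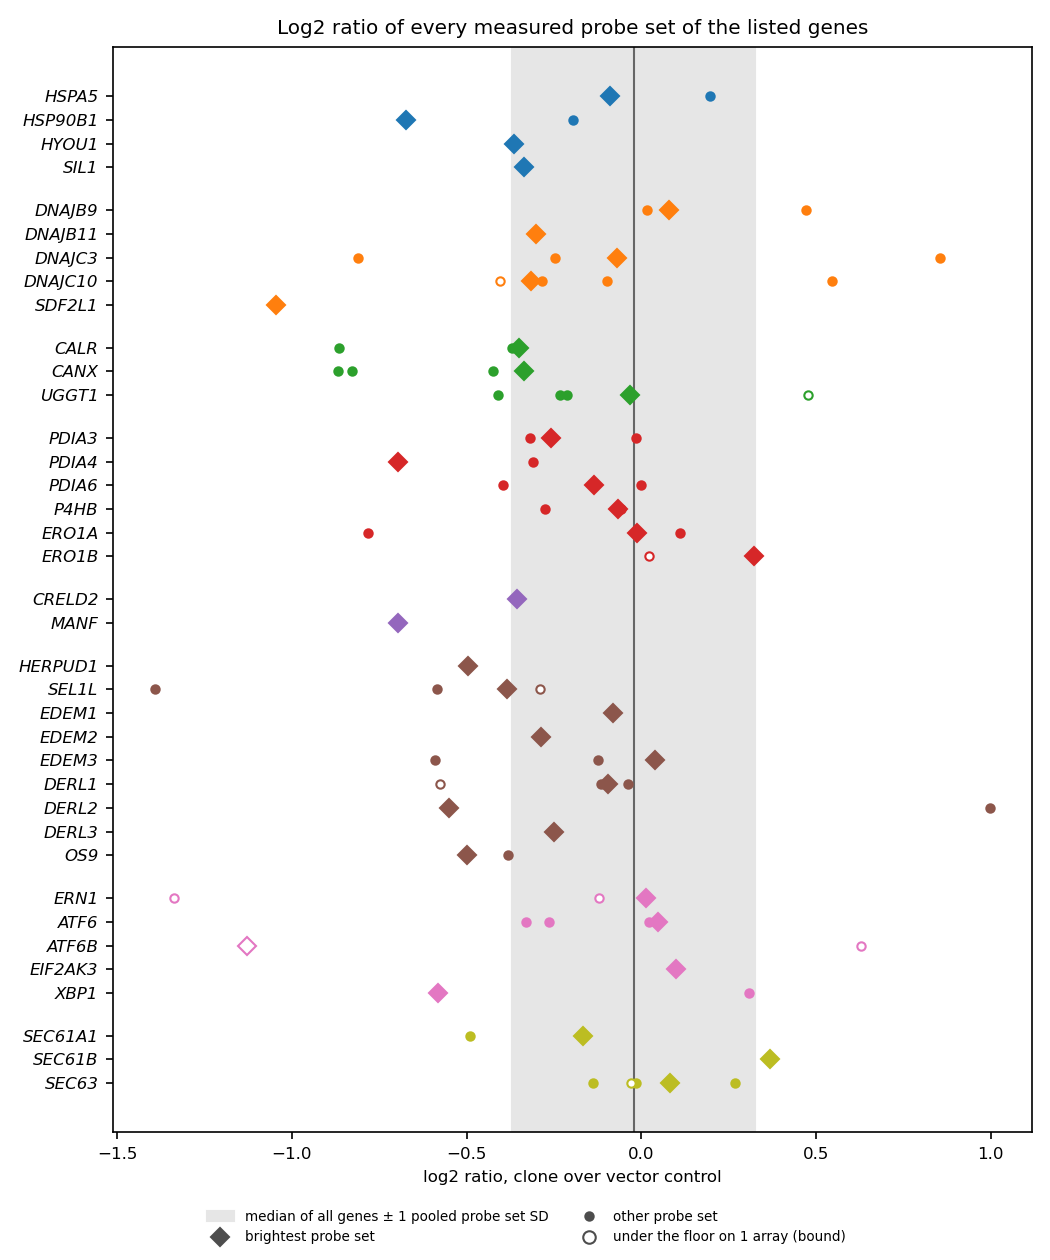
Log2 ratio of every measured probe set of the listed genes, clone over vector control, coloured by subgroup; diamonds are the brightest probe set of a gene, open symbols are bounds from signals under the floor on 1 array, and the grey band is the median of all genes (-0.022) plus or minus the pooled probe set SD of 0.35. CANX, CALR and SEL1L have all their filled symbols left of the median line, while DNAJC3, DERL2, XBP1 and ATF6B have symbols on both sides.

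Disulfide isomerases and oxidases had a median log2 ratio of -0.10, close to that of all genes, with PDIA4 standing out. PDIA4 (ERp72), an isomerase that works with BiP and GRP94, went from 9123 to 5624.2, a 1.62-fold lower signal. On its other probe set, which has no mark of shared sequence, it read 2477.4 and 1997.6, a log2 ratio of -0.31 against -0.70. PDIA3 (ERp57), the isomerase that binds calnexin and calreticulin, read 11864 and 9922.4, 706.5 and 698.5, and 477.6 and 383.2, with log2 ratios of -0.26, -0.016 and -0.32. PDIA6 (P5) was lower on all 4 probe sets, but by little. Its signals were 16182.9 and 14732.6, 15575 and 14175.5, 13819.3 and 13806.3, and 13261.9 and 10073.2, with log2 ratios from -0.40 to -0.0014. P4HB, the founding protein disulfide isomerase, read 12128.3 and 11566.4, and its 3 log2 ratios ran from -0.27 to -0.057. The oxidases that recharge these isomerases were near equal or higher on their brightest probe sets. ERO1A read 1711 and 1696.2, with log2 ratios of -0.013, 0.11 and -0.78 over 3 probe sets, and ERO1B 619.3 and 774.9, a log2 ratio of 0.32.

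MANF and CRELD2, small stress-induced proteins that stay in the ER or are secreted, were both lower, each on 1 probe set without shared sequence. MANF, a neurotrophic factor that binds BiP, had signals of 6242.9 and 3852, 1.62-fold lower. CRELD2, which has isomerase activity, read 3901.8 and 3049.6, 1.28-fold lower.

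Of the 9 measured ERAD genes, 8 were lower in the clone (52.8% of all measured genes). None was at least 1.5-fold lower (8.43% of all) or higher (5.38% of all). Their median log2 ratio was -0.29. HERPUD1, a membrane scaffold of the degradation complex and a strong target of the stress response, read 3557.6 and 2520.6, 1.41-fold lower on its only measured probe set. SEL1L, the adaptor that links the ligase SYVN1 to its substrates, had 3 probe sets measured on both, at 3075.4 and 2355.2, 921.6 and 351, and 731.1 and 487.8. All were lower, by log2 ratios of -0.38, -1.39 and -0.58, the second being 2.63-fold. OS9, the lectin that brings misfolded glycoproteins to SEL1L, read 8268.9 and 5848.9, and 3568 and 2736.7, with log2 ratios of -0.50 and -0.38. These 3 genes are read only by probe sets of shared sequence.

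The derlins and EDEM proteins were less even. DERL1, a membrane protein of the retrotranslocation channel, read 8441 and 7898.6, and its 3 probe sets measured on both arrays lay between -0.11 and -0.038. Another, dim in the clone (310.2 and 70.1), gave a bound of -0.58. DERL2 read 3986.2 and 2722.9, 1.46-fold lower and the lowest ratio of the ERAD genes, but 335.1 and 669.4, 2.00-fold higher, on its dimmer probe set. DERL3 was near the floor, at 314.5 and 264.5. The mannosidase-like EDEM proteins mark glycoproteins for degradation. EDEM1 read 772.3 and 730.5 (log2 ratio -0.080), EDEM2 1235 and 1012 (log2 ratio -0.29), and EDEM3 4740.8 and 4874.4 (0.040), with -0.59 and -0.12 on the dimmer EDEM3 probe sets.

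The stress sensors had mixed values, and their median log2 ratio of 0.014 depended on the choice of probe set: relative to all genes it was 0.035 on the brightest probe sets and -0.076 when a gene took the median over its probe sets. ERN1 (IRE1), the kinase and endonuclease that splices XBP1 mRNA, was level at 507.6 and 512.4. Its other probe sets read 526.1 and 165.7, at least 2.53-fold lower, and 226.4 and 187.5. Both of these were above the floor in the control alone and so could only read lower. The ERN1 probe sets thus differed in the size of the difference. ATF6, a transcription factor released from the membrane by proteolysis, read 3523.2 and 3638.7 and had log2 ratios from -0.33 to 0.047 over 4 probe sets, 2 of them lower. EIF2AK3 (PERK), the kinase that slows translation, read 814.2 and 872.8, a log2 ratio of 0.10. ATF6B, a relative of ATF6, read 455.2 and 126, at least 2.19-fold lower, but another probe set went from 128 under the floor to 321.5 and the third was under the floor on both arrays, so its direction is not settled by these arrays. XBP1, the factor made active by IRE1, read 1233.5 and 824.7 on its brightest probe set and 299.8 and 371.2 on the other, log2 ratios of -0.58 and 0.31. The arrays give no reading of XBP1 splicing, of ATF6 cleavage or of PERK activity.

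The translocon genes had mixed values, with 4 of 7 probe sets measured on both arrays lower (51.2% of all such probe sets). SEC61B, a small subunit of the channel, read 17755.7 and 22921.9, a log2 ratio of 0.37 and the largest upward difference among the listed genes. SEC61A1, the pore-forming subunit, read 5931.6 and 5279.6, and 4570.5 and 3255.5, with log2 ratios of -0.17 and -0.49. SEC63, a J-domain protein that recruits BiP to the channel, read 7865.9 and 8324.1, and its 4 probe sets measured on both lay between -0.14 and 0.27.

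Set side by side, the medians of the subgroups ran from -0.53 for MANF with CRELD2, -0.35 for the BiP and GRP94 machinery, -0.34 for the lectin cycle, -0.30 for the J-domain proteins with SDF2L1 and -0.29 for ERAD, through -0.10 for the disulfide enzymes, to 0.014 for the sensors with XBP1 and 0.082 for the translocon. The subgroups hold 2 to 9 measured genes, and the differences between subgroups were not tested. Relative to all genes, the 2 last medians changed sign in some of the 12 ways of processing, and the other 6 were below 0 in all 12. The spike centrings among the 12 move all genes alike and could not change these relative medians.

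Other ER genes, from lists outside the 38, were set beside them. Of 152 measured, 91 were lower in the clone and their median log2 ratio was -0.055, against -0.26 for the 38. The difference was not tested. Of all measured genes, 52.8% were lower, 8.43% at least 1.5-fold lower and 5.38% at least 1.5-fold higher. The 42 other ERAD factors had a median of 0.017, with 3 at least 1.5-fold lower: SGTA, a cochaperone of membrane protein sorting (1459.2 and 950.2), RHBDD1, a rhomboid protease (1425.2 and 872.7), and TMEM129, a ubiquitin ligase (689.2 and 411.0). For RHBDD1, 3 of 4 probe sets were lower, and for TMEM129, 1 of 2. VCP, the ATPase that pulls substrates from the membrane, was 1.52-fold higher, at 11731.1 and 17784.6. The 35 other isomerases and chaperones had a median of -0.034; SERPINH1, the collagen chaperone, was 1.52-fold lower (14131.9 and 9292.5), CLGN, a calnexin relative, 1.96-fold higher (1526.1 and 2995.2) and QSOX2, a sulfhydryl oxidase, 2.02-fold higher (1295.5 and 2622.4). The 49 genes of translocation, signal peptidase and N-glycosylation had a median of -0.097, with DPAGT1 and ALG1, enzymes that build the N-glycan precursor, 1.54-fold lower each (3526.9 and 2285, and 721.5 and 470). Signalling genes of the unfolded protein response had a median of -0.25 over 26 genes, near that of the 38. Of these, 5 were at least 1.5-fold lower: DDIT3 (CHOP) and ATF3, transcription factors downstream of PERK (2711.9 and 1228.5, and 1425.8 and 730.4), WFS1, an ER membrane protein (771.3 and 423.1, 1.82-fold), CHAC1, a glutathione-degrading enzyme (566.7 and 345.8, 1.64-fold), and CREB3L4, an ER-bound transcription factor (763.6 and 506.7, 1.51-fold). CREBRF, a regulator of CREB3 proteins, read 352.9 and 587.8, 1.67-fold higher, while 2 of its 3 probe sets were lower.

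**Figure D3:**
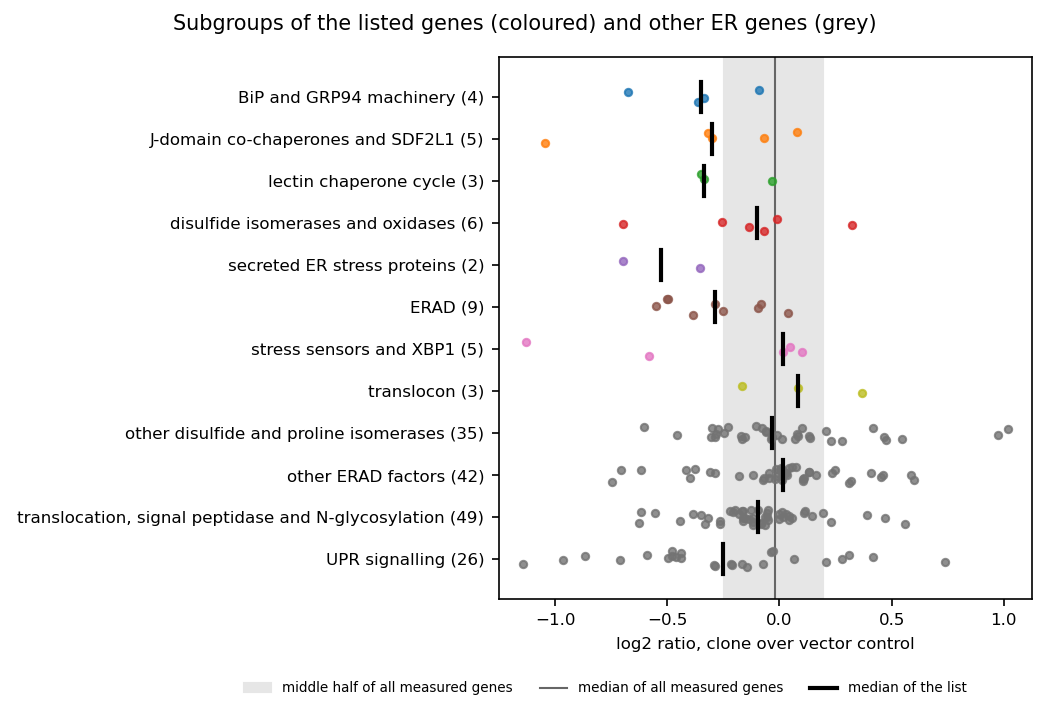
Log2 ratios, clone over vector control, of the listed genes by subgroup (coloured) and of other ER genes by list (grey), each point being 1 gene on its brightest probe set, with the number of genes in brackets; short black bars are list medians, the thin line the median of all measured genes (-0.022) and the band their interquartile range. The medians of 5 subgroups lie left of the band, those of the disulfide enzymes, the sensors and the translocon inside it, and that of the signalling list (-0.25) at its left edge.

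Many of these genes carry the ER stress element (ERSE), the promoter sequence through which ATF6 acts together with the CCAAT-binding factor NF-Y. The element was searched on both strands as CCAAT and CCACG with any 9 bases between them, its compact form ERSE-II as ATTGG and CCACG with 1 base between, and the XBP1 and ATF6 site UPRE as TGACGTGG. The windows, from RefSeq (GRCh38.p14), hold 250 bases before to 50 after each listed gene start; 35 of the 38 genes matched. An ERSE or ERSE-II was found in 11 of the 35 (31.4%) and in 44 of all 27305 genes with a window (0.161%). ERSE alone was in 8 of the 35 and 0.0916% of all, ERSE-II in 3 and 0.0696%, and UPRE in 2 (HYOU1 and DNAJC10) and 0.927%. The short CCACG, which is part of all of them, was in 24 of the 35 and 42.1% of all genes. A match describes the letters and does not show binding. The UPRE of HYOU1 overlaps 1 of its ERSE-II matches.

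The 250 bases before the HSPA5 start (chr9:125241344-125241593, minus strand) are printed because this promoter is the textbook example. Every CCAAT or CCACG on either strand is in capitals, and the full element lies 66 to 48 bases before the start.
HSPA5: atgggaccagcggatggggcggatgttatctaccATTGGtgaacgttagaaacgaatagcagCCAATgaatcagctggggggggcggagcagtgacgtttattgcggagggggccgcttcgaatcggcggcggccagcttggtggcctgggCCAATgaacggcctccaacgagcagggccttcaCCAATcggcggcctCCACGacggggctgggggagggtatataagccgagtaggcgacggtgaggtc

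The other matches are shown with up to 20 bases on each side, 5′ to 3′ on the strand of the gene, to let the elements of genes with different ratios be compared. Capitals mark the element, which reads CGTGG at its left end where it lies on the opposite strand.
SDF2L1 (ERSE-II, chr22:21642094-21642144, plus strand): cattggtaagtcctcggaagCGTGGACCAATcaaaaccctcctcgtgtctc
HERPUD1 (ERSE-II, chr16:56932005-56932055, plus strand): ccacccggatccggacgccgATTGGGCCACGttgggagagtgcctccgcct
HYOU1 (distal ERSE-II, chr11:119057360-119057410, minus strand): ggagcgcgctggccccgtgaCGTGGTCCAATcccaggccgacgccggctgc
HYOU1 (proximal ERSE-II, chr11:119057254-119057304, minus strand): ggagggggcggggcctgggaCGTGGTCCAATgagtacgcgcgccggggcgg
HSP90B1 (distal ERSE, chr12:103930196-103930254, plus strand): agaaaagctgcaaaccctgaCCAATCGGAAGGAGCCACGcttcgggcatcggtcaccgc
HSP90B1 (proximal ERSE, chr12:103930301-103930359, plus strand): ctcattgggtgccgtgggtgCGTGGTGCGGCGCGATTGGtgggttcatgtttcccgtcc
XBP1 (ERSE, chr22:28800583-28800641, minus strand): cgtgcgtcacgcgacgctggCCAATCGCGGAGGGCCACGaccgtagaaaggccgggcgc
CRELD2 (ERSE, chr22:49918534-49918592, plus strand): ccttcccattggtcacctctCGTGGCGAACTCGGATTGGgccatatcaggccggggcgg
CALR (ERSE, chr19:12938364-12938422, plus strand): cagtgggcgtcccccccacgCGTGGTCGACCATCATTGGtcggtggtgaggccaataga
CANX (ERSE, chr5:179698758-179698816, plus strand): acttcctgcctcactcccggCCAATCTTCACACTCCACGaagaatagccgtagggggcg
PDIA6 (ERSE, chr2:10812833-10812891, minus strand): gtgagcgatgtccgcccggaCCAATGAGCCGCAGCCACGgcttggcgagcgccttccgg
ERO1B (ERSE, chr1:236282163-236282208, minus strand): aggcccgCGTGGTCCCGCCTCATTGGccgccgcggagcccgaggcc

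Genes with an element had a lower median than those without. Of the 11, 10 were lower, all but ERO1B, with a median log2 ratio of -0.36. Of the 23 measured genes with a window but no exact element, 16 were lower, with a median of -0.080. Of all measured genes, 52.8% were lower. The 3 genes with ERSE-II had log2 ratios of -0.36 (HYOU1, which holds a pair of matches), -0.50 (HERPUD1) and -1.05 (SDF2L1). HSP90B1, with a pair of ERSE matches, stood at -0.67 on its brightest probe set and -0.20 on the other. All of these genes are read only by probe sets of shared sequence. An element did not go with a low ratio in each gene: HSPA5 and PDIA6 stood at -0.090 and -0.14, and PDIA4 and MANF, at -0.70 each, have no exact match in this window. The difference between the 2 medians, -0.28, was between -0.31 and -0.18 in the 12 ways of processing. It stayed at -0.28 under both spike centrings and every floor setting, but neither could change it. Spike centring shifts all genes alike. The floor settings keep the same probe sets and, of these genes, changed only the ratio of ATF6B. That ratio stayed below the median of its set under each floor, so the median did not move. Without probe sets of shared sequence the difference was again -0.28. The counts parted less there: 5 of 7 genes with an element and 13 of 19 without lay below the median of all genes, against 10 of 11 and 15 of 23 on all probe sets. It is a description of 34 genes on 1 pair of arrays, and was not tested.

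Genes outside the list that hold an element gave a smaller difference. Of 33, 21 were measured and 14 of these were lower (52.8% of all measured genes), with a median log2 ratio of -0.11. However, 4 of the 14 were above the floor in the control alone and could only read lower. Of the 17 above it on both arrays, 10 were lower (48.8% of all such genes), with a median of -0.063. Among those known in the ER, SERP1, a stress-associated translocon protein, read 16287.4 and 13145.5 (log2 ratio -0.31), NUCB1, a calcium-binding protein of the Golgi that restrains ATF6 activation, 2783.3 and 2351.6 (-0.24), ALG12, a mannosyltransferase whose start faces that of CRELD2 across the same element, 438.7 and 419.9 (-0.063), and FICD, the enzyme that modifies BiP by AMPylation, 805.4 and 859.1 (0.093). These 4 were picked for their known roles after their values were seen.

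**Figure D4:**
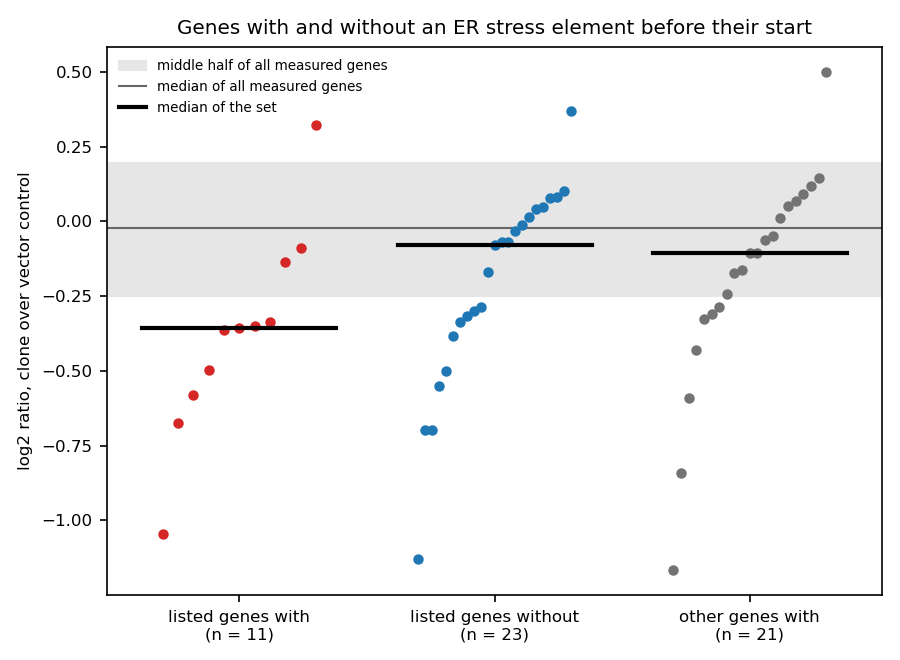
Log2 ratios, clone over vector control, of the 11 listed genes with an exact ERSE or ERSE-II in the promoter window, the 23 without, and 21 measured genes outside the list that hold one; points are genes in rising order, black bars set medians, the thin line and grey band the median and interquartile range of all measured genes. The bar of the listed genes with an element lies at -0.36, below the band, and those of the other sets at -0.080 and -0.11, inside it.

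Chromosome position set HSPA5 and SEC61B apart from the rest. Both lie on chromosome 9, whose 445 genes above the floor on both arrays had a median log2 ratio of 0.48; on every other autosome and on X the median lay between -0.065 and 0.14. HSPA5, at -0.090 on its brightest probe set, thus lay 0.57 below the genes of its own chromosome. That gap was wider than its gap of 0.068 to all genes, and HSP90B1 lay 0.67 below its chromosome. Both gaps were smaller on the other probe set of each gene, which gave 0.19 for HSPA5 and -0.20 for HSP90B1. SEC61B, the highest of the listed genes at 0.37, lay 0.11 below its chromosome. Of the 4 other ER genes at least 1.5-fold higher, VCP and QSOX2 also lie on chromosome 9, and CLGN and CREBRF on chromosomes 4 and 5. DNAJC3 is on chromosome 13, whose median of 0.14 was the next highest, and lay 0.21 below it on its brightest probe set. Its other probe sets ran from -0.81 to 0.85, so no direction can be given for it here either. Measured against its own chromosome, 29 of the 37 genes were lower. By definition, as many genes above the floor on both arrays lie below their chromosome's median as above it. The 29 are not quite the genes counted as lower before: SEC61B joined them and ERO1A left. Whether the copy number of chromosome 9 differs between the lines was not tested.

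**Figure D5:**
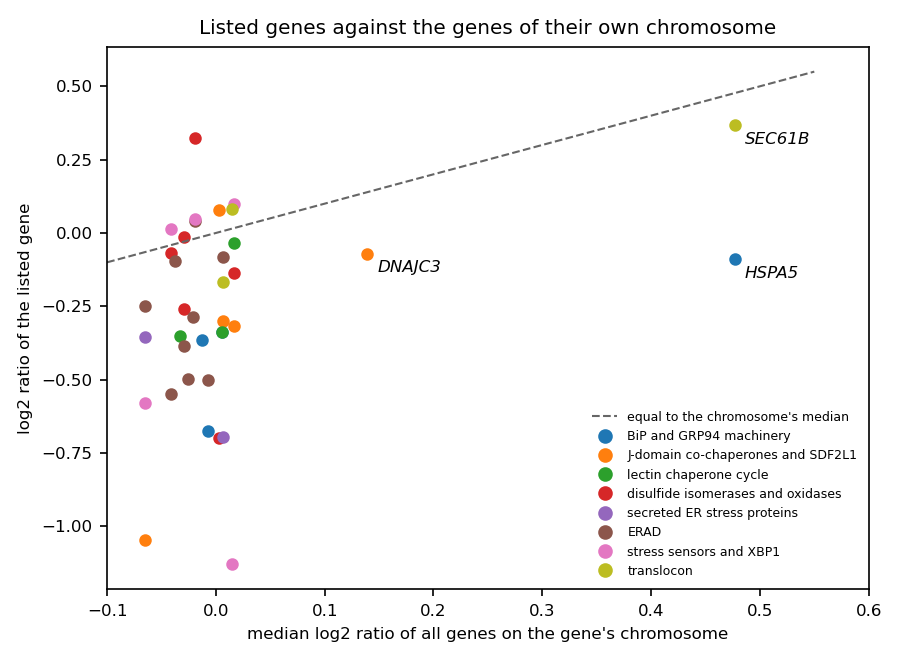
Log2 ratio of each listed gene, clone over vector control, against the median log2 ratio of all genes on its chromosome above the floor on both arrays; points are genes coloured by subgroup and the dashed line marks equality. HSPA5 and SEC61B, on chromosome 9 at 0.48, and DNAJC3, on chromosome 13 at 0.14, stand to the right of the other genes and below the line. Each gene is shown on its brightest probe set, and the probe sets of DNAJC3 disagreed in direction.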

How the data were processed

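Total RNA of 2 SK-N-MC lines was read on Affymetrix U133 Plus 2.0 arrays; GCOS 1.3 was used, per the submitters' processing notes, while the algorithm that summarised probes is not given in the sources used here. Deposited values are linear intensity values, 1 per probe set and array. Symbols came from the platform annotation of 2016 (41097 probe sets with 1 symbol, 1801 with several), updated by gene ID through RefSeq's table for GRCh38.p14. A signal below the floor was set to it, so such a ratio is a bound. With 1 array a group there is no p-value; genes were counted past 2-fold and 1.5-fold. All 38 genes are named, each measured one with the signals of its brightest probe set. Further probe sets are given as signals, log2 ratios or ranges, mainly for genes past 1.5-fold, agreeing or disagreeing across probe sets, or brightest. Some dim probe sets are left out. Other ER genes are named if past 1.5-fold. The genes, lists and motifs were chosen with earlier results of these data known. Protein features were planned but not analysed here. Alternatives covered scaling, probe set choice, the floor and chromosome 9. Values were computed with pandas 2.3.3, numpy 2.4.6 and, for loess scaling, statsmodels 0.14.6 under Python 3.11.15, in scripts tested on simulated data.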

Additional observations from a re-analysis of the deposited data

How the results depend on the processing

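Having 1 array in each group limits the precision throughout. The median log2 ratio of the listed genes relative to all genes was below 0 in all 12 ways of processing, from -0.26 to -0.087. The last was on probe sets without shared sequence, which leave 29 genes. Spike centring moves all genes alike, so the spike centrings among the 12 could not change this relative median. Of the counts, that of genes at least 2-fold lower (2) was 0 centred on the hybridisation spikes, 9 centred on the poly-A spikes, and 1 with the median of a gene's probe sets, without shared sequence, or with the floor 2 times as high. The count at least 1.5-fold lower (5) was 1 and 30 on these spike scalings. It was 3 with the median of probe sets or without shared sequence. The count 1.5-fold higher (0) was 3 on the hybridisation spikes. Spike centring put the median of all genes at 0.48 (hybridisation) and -0.63 (poly-A). The latter is itself past the 1.5-fold line, so most genes passed that line there. Shares of all genes past these lines were not counted for the alternatives. The median of the other ER genes relative to all (-0.034) was -0.067 with quantile scaling, -0.063 with the higher floor and 0.018 with no floor. The comparison with a gene's own chromosome was added after seeing the data. The causes were not tested. No paired analysis was possible because each group has 1 array.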
